A study of Strongylocentrotus purpuratus with 8 samples.

Results

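A sharp border between methylated and unmethylated DNA was defined here as a stretch of 2000 bp in which CpG methylation drops from 80% or more to 20% or less between neighbouring windows of 500 bp. Each stretch holds 4 adjacent windows. Each window had at least 20 reads in pooled 72 hpf embryos (hours post fertilisation, hpf) and at least 20 in pooled adult tube feet. In the pooled 72 hpf reads, both windows on the methylated side were at 80% or more and both windows on the other side at 20% or less. This rule gave 1173 borders among the 407277 stretches with enough reads in the purple sea urchin, Strongylocentrotus purpuratus. They cover 4621 different windows of the 1522405 windows with any CpG call. The 72 hpf levels chose the borders and are given below as a description only.

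DNA methylation was measured by whole-genome bisulfite sequencing (MethylC-seq), in which unmethylated cytosines are read as thymines and methylated cytosines are still read as cytosines. The 8 libraries come from untreated embryos at 24, 48 and 72 hpf and from adult tube feet, the small suckered organs on which a sea urchin walks, with 2 replicates in each of the 4 groups, which the series' design text calls biological. The adult's age, genotype and the number of animals or cultures behind a library are not given in the labels. The labels likewise do not say that replicates came from separate cultures or animals, so p-values measure only the spread between these libraries. A level is a mean over all cells of the embryo or tissue, so a change in every cell and a change in the mix of cells cannot be told apart. A read is counted at each CpG site it covers, so read numbers are numbers of calls.

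In many invertebrates methylation is mosaic: long methylated stretches, often the bodies of expressed genes, alternate with unmethylated DNA that includes most promoters and much of the intergenic space. The maintenance methyltransferase DNMT1 copies the pattern to the new strand after replication, DNMT3 enzymes add methylation de novo, and TET enzymes oxidise methylated cytosines, which can lead to their loss. A border is where these states meet, so it shows how precisely a pattern is placed and whether it is held through development. Gene annotation and base sequence at the borders were not analysed here, since the files use the scaffolds of the Spur3.1 build and the only gene table available here was made on a different assembly.

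Each library held 75377025 to 126381599 reads at CpG sites, and the share of lambda phage cytosines read as methylated, which measures incomplete conversion, ranged from 0.112% to 0.296%. 24 hpf replicate 2 stood apart from the others. Its overall CpG level was 42.2%, against 21.1% to 29.8% in the other libraries. At the borders, its reads per CpG site on the methylated side were 1.87 times those on the unmethylated side, against 0.874 to 1.22 times in the others. Results that rest on it are therefore also given without it.

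The borders were spread over the genome. They lay on 765 scaffolds, of which 507 held exactly 1 border and 93 held 3 or more, and no scaffold held more than 7. The methylated side was at lower coordinates in 591 borders and at higher coordinates in 582. Neighbouring borders shared 71 windows, in 78 borders, and those borders are not independent of each other. In 29 places, 2 borders enclosed an unmethylated segment, with a median length of 1000 bp and a longest of 7500 bp. In 16 places they enclosed a methylated segment, with a median of 1000 bp and a longest of 5000 bp. The rule needs 2 windows on each side, so 1000 bp is the shortest length possible, and both medians lie at that floor.

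Most of the transitions that could be counted on this grid of windows at 72 hpf were of this abrupt kind. Among 1788 transitions with up to 3 intermediate windows between a pair of methylated and a pair of unmethylated windows, 1173 (65.6%) had none. Another 452 (25.3%) had 1, 108 (6.04%) had 2 and 55 (3.08%) had 3. Whether a given transition counts as abrupt depends on where the windows start. On windows shifted by 250 bp, 301 of the 1173 (25.7%) again had a border of the same direction 250 bp away. Wider transitions also need more adjacent windows with enough reads, so they are missed more easily. How far this raises the share of abrupt ones was not tested. Walking away from the border, the methylated run had a median length of 1500 bp and a longest of 11000 bp. The unmethylated run had a median of 1000 bp, the shortest the rule allows, and a longest of 39000 bp. These lengths are lower limits in many cases, since 59.4% of the methylated and 76.6% of the unmethylated runs ended at a window with too few reads.

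The members closest to the limits, given with no test, were Scaffold3:1859001-1861000 and Scaffold10:856501-858500. In the first, the 4 windows stood at 94.0%, 88.6%, 20% and 1.205% at 72 hpf, and in the second at 92.9%, 97.04%, 0% and 20%. Just outside the limits, Scaffold29:814501-816500 stood at 91.5%, 84.3%, 20.06% and 1.42%, and Scaffold219:393501-395500 at 85.5%, 85.2%, 20.1% and 0.235%. In all, 180 borders had a window within 2 points of a limit.

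CpG sites were denser on the unmethylated side, and the rule set no limit on their number. Its minimum of 20 reads, counted per CpG site, is met more easily by CpG-rich windows and applied to both sides alike. The outer methylated window held 11.5 CpG sites on average, the inner methylated window 13.0, the inner unmethylated window 14.7 and the outer unmethylated window 15.5. Windows of stretches methylated throughout held 9.36 and windows of stretches unmethylated throughout 14.0. The unmethylated side had more CpG sites in 768 of the 1173 borders (65.5%), fewer in 385 and equally many in 20. The methylated side of a border was therefore richer in CpG sites than stretches methylated throughout, some of whose windows also belong to a border. Comparisons between the methylated side and those stretches are also given within classes of CpG density.

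At the scale of single CpG sites most of the change lay within 100 bp on either side of the step. For each border, the position in the stretch was found at which a single step from a methylated to an unmethylated level best fitted the CpG calls. With the borders aligned on the 72 hpf position, the level in the last 20 bp before it was 67.9% and 80.8% in the 24 hpf libraries, 69.8% and 70.5% in the 48 hpf libraries, and 58.9% and 54.2% in the adult libraries. In the first 20 bp after it, the level was 18.1% and 30.2% at 24 hpf, 19.2% and 20.7% at 48 hpf, then 34.1% and 29.5% in tube feet. By 80 to 100 bp after it, the 4 libraries of 24 and 48 hpf were at 2.37% to 3.70% and the adult libraries at 4.91% and 4.66%. Both adult libraries were thus below all 4 on the last 20 bp of the methylated side, and above all but 24 hpf replicate 2 on the first 20 bp of the unmethylated side, where that library lay between the adult values.

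**Figure D1:**
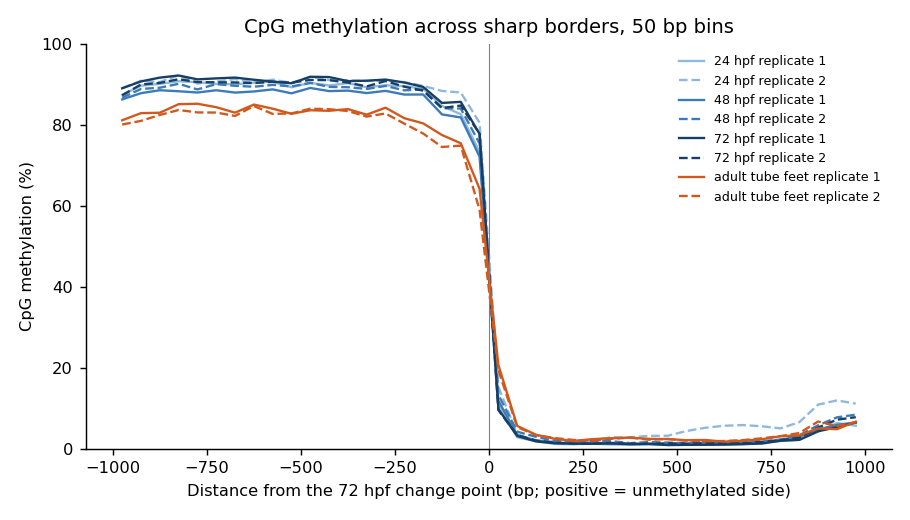
CpG methylation (%, y axis) by distance in bp from the position of the 72 hpf step (x axis, positive towards the unmethylated side), as reads summed over 1172 borders in bins of 50 bp, with 1 line per library (solid, replicate 1; dashed, replicate 2). All lines drop within 100 bp of 0; the orange adult lines run below the embryo lines on the methylated side, and 24 hpf replicate 2 lies above the others beyond 300 bp on the unmethylated side.

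A CpG-poor gap often lay at the step. At 48 hpf the CpG sites that flank the step were a median of 157 bp apart, whereas the median distance between neighbouring CpG sites in these stretches was 17 bp, or 79 bp when each gap is weighted by its length. Borders with 1 intermediate window, which the rule does not take, had a median of 106 bp at the step and a length-weighted median of 82 bp. The part of the rule in this gap was not tested. On windows shifted by 250 bp, 1166 borders were found, and 301 of the 1173 (25.7%) had a shifted border of the same direction 250 bp away.

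Each side had similar levels at 24 and 48 hpf, and the methylated side was lower in tube feet. Over the 880 borders with at least 20 reads on each side in every library, the methylated side had a mean level of 89.1% and 89.6% in the 24 hpf libraries, 87.4% and 88.3% in the 48 hpf libraries, and 81.3% and 80.9% in the adult libraries. The 72 hpf libraries, which chose the borders, were at 90.6% and 89.8%. The adult mean was 81.1% ± 0.280 (SD, n = 2) and the mean of 24 and 48 hpf 88.6% ± 0.967 (SD, n = 4), a difference of -7.50 points. Neither adult library reached the lowest of the 4 embryo libraries, and the two-sided exact permutation test over 15 splits gave p = 0.0667, the smallest it can give, so the 0.05 threshold could not be reached (Benjamini-Hochberg adjusted p = 0.08 over 6 exact tests). Without 24 hpf replicate 2 the difference was -8.01 points. That value is over all borders with enough reads in the remaining libraries, a different set from the 880, so the 2 differences are not directly comparable.

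The unmethylated side showed no such separation. Its mean level was 2.79% and 5.30% in the 24 hpf libraries, 3.03% and 3.88% in the 48 hpf libraries, 2.75% and 3.07% in the 72 hpf libraries, and 4.25% and 4.20% in the adult libraries. The adult mean exceeded that of 24 and 48 hpf by 0.473 points, and the exact permutation test gave p = 0.6. The value of 24 hpf replicate 2 lay above the adult values and those of the other embryo libraries below them. Without 24 hpf replicate 2 the difference was 1.07 points, and without 24 hpf replicate 1 it was 0.152 points. Each is over the borders with enough reads in the libraries kept, so the set of borders also changed. The step, the methylated minus the unmethylated level, was 76.9 ± 0.241 points in tube feet (SD, n = 2) and 84.8 ± 0.978 points at 24 and 48 hpf (SD, n = 4), with both adult libraries below all 4 (exact permutation p = 0.0667, adjusted p = 0.08). The contrast was -7.97 points. It was -9.08 points without 24 hpf replicate 2, again over a different set of borders.

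**Figure D2:**
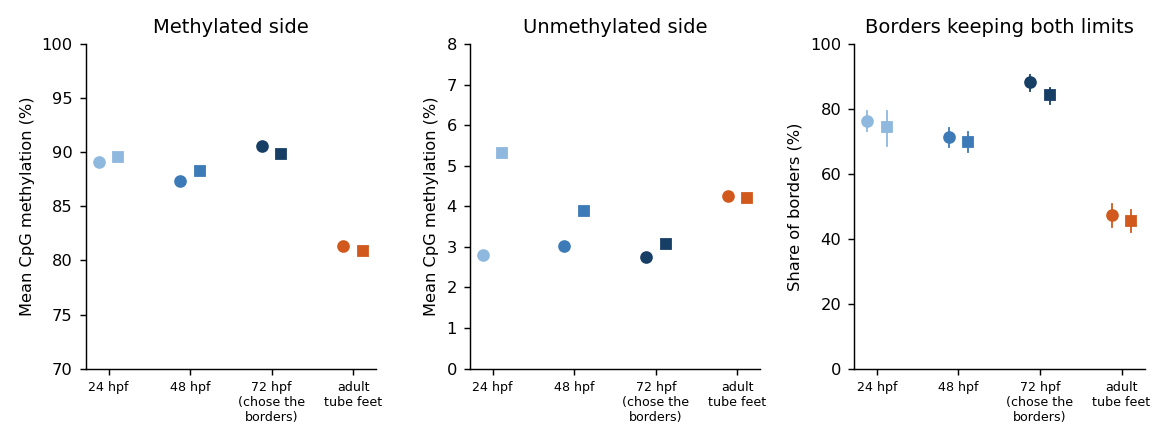
Mean CpG methylation (%) of the methylated side and of the unmethylated side over 880 borders, and share of borders (%) that met both limits again in a single library with its Wilson 95% interval; points are libraries (circle, replicate 1; square, replicate 2), and the first y axis starts at 70%. Both adult points lie below all embryo points for the methylated side (81.3% and 80.9%) and for the share (47.2% and 45.5%), but not for the unmethylated side.

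The level of the methylated window next to the step was also set against that of the one farther from it. Among 444 borders with enough reads in both methylated windows of every library, the inner window differed from the outer window by -1.38 and -0.492 points in the 24 hpf libraries, -0.579 and -0.868 points in the 48 hpf libraries, and -2.36 and -2.24 points in the adult libraries. The groups did not overlap, and the contrast of adult tube feet with 24 and 48 hpf was -1.47 points (exact permutation p = 0.0667, adjusted p = 0.08). Without 24 hpf replicate 2 it was -1.18 points, over the borders with enough reads in the remaining libraries instead of the 444. It depended on where the windows start: with the borders found on windows shifted by 250 bp it was -0.366 points (exact permutation p = 0.333).

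Borders differed widely among themselves in tube feet. The level of the methylated side, over all 1173 borders in pooled adult reads, had a median of 84.7% with a lowest of 0% and a highest of 96.9%, and 10% of borders were at 61.7% or less. At 48 hpf the median was 88.3%, the lowest 61.3% and the highest 97.3%. The methylated side was at 80% or more in 66.9% of borders in tube feet and in 92.8% at 48 hpf. On the unmethylated side the median was 1.16% in tube feet and 1.26% at 48 hpf, and the highest values were 90.5% and 33.6%. The values of single borders were similar in both adult replicates: their methylated sides differed by a median of 3.72 points over 1165 borders, with a correlation across borders of 0.890. These borders share libraries and are not independent replicates.

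Whether a border met the same limits again was counted next. In pooled 24 hpf reads, 696 of the 913 borders with 20 or more reads in each window (76.2%, Wilson 95% interval 73.4 to 78.9) met them, and 829 of 1128 (73.5%, 70.8 to 76.0) did so at 48 hpf. In pooled adult reads, 485 of 1173 (41.3%, 38.6 to 44.2) did. The intervals cover counting error only and treat borders as independent. In single libraries the share was 76.4% and 74.3% at 24 hpf, 71.3% and 69.9% at 48 hpf, then 47.2% and 45.5% in tube feet. The contrast was -26.6 points, with both adult libraries below all 4 (exact permutation p = 0.0667, adjusted p = 0.08), and -26.2 points without 24 hpf replicate 2.

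A choice by threshold at 72 hpf makes any other sample look less sharp, so the borders were also chosen in 1 replicate of 72 hpf and counted in the other. Of 840 borders chosen in 72 hpf replicate 2, 77.2% of those with enough reads met the limits in replicate 1 of the same stage, against 49.0% and 45.2% in the adult libraries. Of 724 chosen in replicate 1, 73.1% met them in replicate 2, against 49.4% and 46.1% in the adult libraries. The 24 and 48 hpf libraries gave 69.9% to 76.9%, and the held-out 72 hpf replicate lay in or just above that range.

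Applying the rule to each group in turn, on stretches with enough reads in all 4, gave 898 borders at 24 hpf, 801 at 48 hpf, 900 at 72 hpf, with 576 in tube feet. Of these, 303 were found in all 4 groups and 1294 in any. The 400 borders shared by 72 hpf and adult tube feet were 44.4% of the former and 69.4% of the latter. The 678 shared by 48 and 72 hpf were 75.3% of those at 72 hpf and 84.6% of those at 48 hpf.

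Where a border no longer met the limits in tube feet, it was mostly the methylated side that had an intermediate level. In 531 borders (45.3%) at least 1 methylated window was between 20% and 80% and none lower, while the unmethylated side stayed at 20% or less. The intermediate window was the inner one alone in 200, the outer one alone in 138 and both in 193. A further 23 borders (1.96%) had a methylated window at 20% or less, and in 9 of them all 4 windows were at 20% or less. In 78 borders (6.65%) the unmethylated side was above 20% and the methylated side kept, mostly in the inner window alone (56). In 1 of these all 4 windows were at 80% or more. In 56 borders both sides missed their limits. At 48 hpf, by comparison, 219 of 1128 borders (19.4%) had an intermediate methylated side alone and 58 (5.14%) were above 20% on the unmethylated side alone.

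Intermediate adult windows held intermediate sites. In the 808 methylated-side windows that lay between 20% and 80% in pooled adult reads, 52.0% of CpG sites with at least 10 reads were between these limits, 39.9% at 80% or more and 8.07% at 20% or less. The same windows at 48 hpf had 19.2%, 79.3% and 1.49%. Their median site level was 72.7% in tube feet and 90% at 48 hpf. In the 1481 windows at 80% or more in tube feet, 87.3% of the adult sites were at 80% or more. These windows were grouped by their adult level, so the values are a description.

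Single windows were tested with a quasi-binomial logistic model fitted to all windows that had 4 or more CpG sites and were covered by 20 or more reads in each library, and called at an adjusted p below 0.05 and a difference of at least 20 points. Of 2322 methylated-side windows, 1280 could be tested between adult tube feet and 48 hpf. Of these, 122 fell (9.53%) and 1 rose. Over all windows tested, 9.04% were called lower and 0.967% higher, so the share on the methylated side was near the background of the genome. The inner windows had 72 lower calls of 653 (11.03%) and the outer windows 51 of 642 (7.94%). Without 24 hpf replicate 2, which lets more windows be tested, 174 of 1596 methylated-side windows (10.9%) were called lower, with 8.90% of all windows. Without adult replicate 1 there were 70 lower calls (6.67%, with 6.05% of all windows), and without adult replicate 2 there were 67 (6.49%, with 5.97%). The order turned under 6 of 15 alternatives, among them limma (6.72% at borders and 7.21% of all windows), a minimum of 40 reads (8.02% and 8.68%) and leaving out 72 hpf replicate 1 (7.83% and 8.51%).

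Methylated windows elsewhere are the closer comparison. In stretches of 4 windows methylated throughout at 72 hpf, some of whose windows also belong to a border, 8549 of 45995 windows (18.6%) were called lower in tube feet, and of all windows at 80% or more at 72 hpf, 22.7% were. The lower share at borders was also seen within classes of CpG density. In windows of 4 to 7 CpG sites, 17.5% at borders and 25.4% in stretches methylated throughout were called lower. The shares were 13.6% and 21.0% for 8 to 11 sites, 6.77% and 16.5% for 12 to 15 sites, and 6.85% and 10.6% for 16 to 29 sites. With 30 or more sites, 2 of 51 border windows (3.92%) and 5.43% of the others were called.

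The mean levels showed the same order. In 1288 methylated-side windows with 20 or more reads in every library, the level minus that in 45963 windows of stretches methylated throughout, with border windows left out, was -0.295 and 0.0480 points in the 24 hpf libraries, 0.0572 and 0.0740 points at 48 hpf, and 4.52 and 4.32 points in tube feet. The adult libraries were at 82.2% and 81.1% beside borders and at 77.6% and 76.8% in the others. The adult difference exceeded that of 24 and 48 hpf by 4.45 points (exact permutation p = 0.0667, the smallest it can give; this test was added after the data had been seen). Without 24 hpf replicate 2 it did so by 4.61 points, over the windows with enough reads in the remaining libraries. Within the 4 classes of 4 to 29 CpG sites the excess was 2.48, 3.04, 4.45 and 2.31 points, each with both adult libraries above the others (exact permutation p = 0.0667 each).

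**Figure D3:**
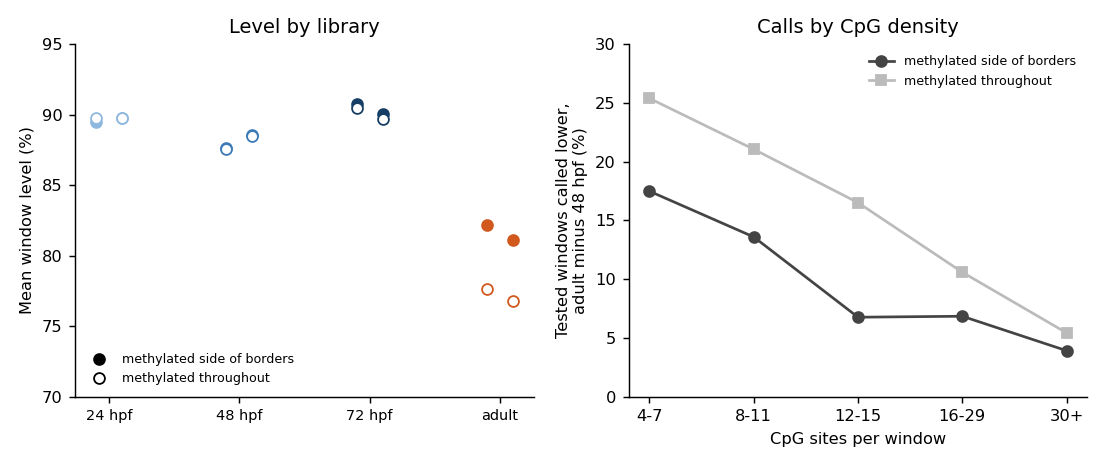
Left, mean window level (%) in each library for methylated-side windows of borders (filled) and windows of stretches methylated throughout (open), with the y axis from 70%; right, share of tested windows (%) called lower in tube feet than at 48 hpf by CpG sites per window. The filled and open points lie within 0.322 points of each other in the embryos and stand apart in the adult libraries (82.2% and 81.1% against 77.6% and 76.8%), and the border line runs below the other at every CpG density.

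Levels also declined with distance from the border. From the outer methylated window to the window 4750 bp away, the adult level dropped from 81.1% and 80.5% to 67.0% and 65.2%. At 48 hpf it dropped from 87.4% and 88.0% to 74.3% and 76.1% over the same distance. In the 72 hpf libraries, which chose the borders, it dropped from 90.7% and 89.8% to 76.4% and 76.3%. The share of tested windows called lower did not follow distance steadily. It was 11.03% and 7.92% in the inner and outer methylated windows, between 9.09% and 11.2% from 1250 to 3750 bp, 14.0% at 4250 bp and 14.6% (35 of 240 windows) at 4750 bp. At 4750 bp on the unmethylated side the level was between 29.9% and 37.9%. The windows beyond the stretch were chosen neither by level nor by pooled reads. They were followed only as long as each next window held a CpG call in some library. Thus 806 and 701 windows stand at the ends against 1173 in the stretch. The level of a library is a mean over those of them with 20 or more reads in it.

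**Figure D4:**
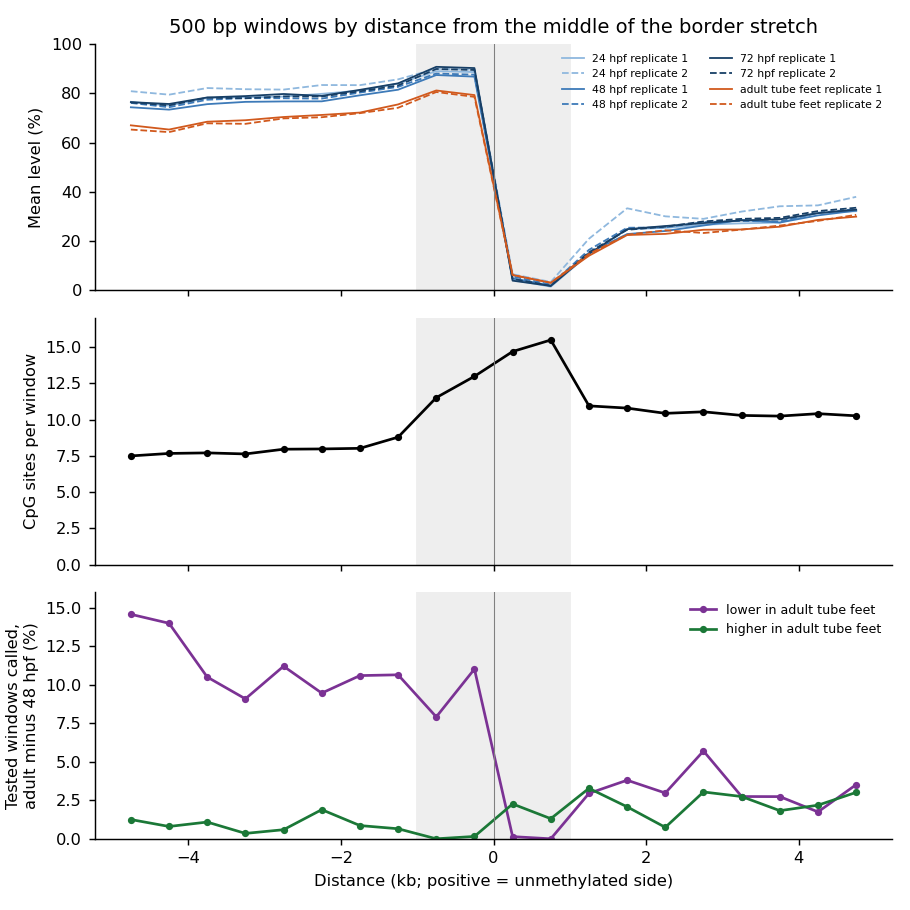
Windows of 500 bp by distance in kb from the middle of the border (x axis, positive towards the unmethylated side, the 4 windows of the border shaded): mean level (%) in each library, mean number of CpG sites per window, and share of tested windows (%) called lower or higher in tube feet than at 48 hpf. CpG density peaks at 15.5 sites in the outer unmethylated window, and lower calls stand at 7.92% to 11.03% in the methylated windows of the border and 14.6% at the far left.

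The called windows were far from their 48 hpf level. The 122 windows that fell had a median of 88.3% at 48 hpf and 48.1% in tube feet. Their differences had a median of -39.5 points and a range from -91.4 to -20.0 points. In all 122 the adult libraries lay below both 48 hpf libraries, as they did in 33242 of the 33249 windows called lower over the genome (9.04% of those tested), so this says nothing particular of borders. In adult tube feet 19 of them were at 20% or less and 103 between the limits. On the unmethylated side, 1290 of 2299 windows were tested, and 23 rose (1.78%), against 0.967% of all windows tested and 0.586% of windows in stretches unmethylated throughout. Of these, 16 of 707 were inner windows (2.26%) and 8 of 609 outer windows (1.31%), with 1 window that is inner in 1 border and outer in another. Their median was 6.22% at 48 hpf and 43.5% in tube feet, and 3 reached 80% or more. There were 35 such windows without 24 hpf replicate 2 (2.01%, with 1.17% of all windows called higher). Without adult replicate 1 there were 9 (0.922%, with 0.567%), and without adult replicate 2 there were 10 (1.05%, with 0.583%). Most other unmethylated-side windows lay too close to 0% to be fitted: 386 of the 1290 could be.

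Between the early stages no border window passed the threshold. From 24 to 48 hpf, 0 of 2570 tested border windows were called, as were 0% of all windows tested, in the quasi-binomial model. At an unadjusted p below 0.05 in that model there were 82 of the 2570 border windows and 11226 of all 367598 windows tested. On log ratios of the reads, limma also called 0 border windows. The count was not 0 without 24 hpf replicate 1, where that group keeps a single library. The share over all windows under that setting is not given here, so this says nothing particular of borders. Between 72 hpf and adult tube feet, given as a description since 72 hpf chose the borders, 132 methylated-side windows were called lower (10.3%, against 9.20% of all windows) and 25 unmethylated-side windows higher (1.94%, against 0.968%). In either direction, 10.2% of all windows were called. Here too, 386 of 1290 unmethylated-side windows and 171660 of all 367598 could be fitted, and only those could be called.

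The position of the step was largely the same across the embryonic stages. A step could be placed in 1168 borders at 24 hpf, 1172 at 48 hpf, 1172 at 72 hpf, but 1093 in tube feet. Between 24 and 48 hpf, 53.4% of borders had it between the very same pair of CpG sites, with a median shift of 0 bp. Between 48 hpf and adult tube feet, 37.5% did, the median shift was 35.5 bp, and 9.61% were shifted by more than 250 bp. Of those far shifts, 64 were towards the methylated side and 41 towards the unmethylated side. Between single libraries, the replicates of 48 hpf shared the position in 48.2% of borders and the adult replicates in 46.9%, whereas single adult and 48 hpf libraries shared it in 27.9% to 30.3%. The 24 hpf replicates shared it in 27.6%. The 48 hpf libraries shared it with 24 hpf replicate 1 in 45.7% and 43.8%, and with 24 hpf replicate 2 in 28.1% and 30.8%, so values as low as those of the adult libraries also occurred between embryo libraries.

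Averaged over 966 borders, the step lay 43.6 and 45.7 bp towards the unmethylated side from the middle of the stretch in the 24 hpf libraries. It lay at 50.7 and 47.9 bp in the 48 hpf libraries and at 32.6 and 30.7 bp in the adult libraries. The adult mean was thus displaced by -15.3 bp, towards the methylated side, with no overlap between the groups (exact permutation p = 0.0667, adjusted p = 0.08). Leaving out 1 library moved it between -19.3 bp, without 72 hpf replicate 2, and -9.67 bp, without adult replicate 2. It was -14.4 bp without 24 hpf replicate 2. Each of these values is over the borders with a step placed in all libraries kept, so the set of borders also changed. With the borders found on windows shifted by 250 bp it was -16.0 bp, but there the adult libraries did not give the most extreme split (exact permutation p = 0.133). The distance over which the level went from the last site at 80% or more to the first at 20% or less had a median of 391 bp at 24 hpf, 332.5 bp at 48 hpf and 353.5 bp in tube feet.

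Single borders illustrate these patterns at their extremes, since they were picked for the largest step or the largest change from 48 hpf to tube feet. For the changes, libraries of the groups had not to overlap. For inner windows, the outer window had to stay within its limit in both adult libraries. The separation of libraries and their p-values are therefore a description. They were taken by rule from the 79 borders with at least 20 reads in every window of every library and no window of unusual coverage. Scaffold993:119501-121500, with 66 CpG sites, had the largest smallest step over the 24 hpf, 48 hpf and adult libraries. Its methylated side was at 95.5% and 97.4% at 24 hpf, 91.9% and 97.3% at 48 hpf, 96.7% and 95.9% at 72 hpf, with 93.8% and 90.9% in tube feet. Its unmethylated side was at 0% to 1.14% in all 8 libraries, and the step lay between the same CpG sites, 63 bp past the middle, in all 4 groups. Scaffold1991:139001-141000, with 56 CpG sites and the methylated side at higher coordinates, came next. It was at 94.5%, 94.1%, 94.95%, 93.8%, 96.6% and 93.4% in the embryo libraries from 24 hpf replicate 1 to 72 hpf replicate 2, and at 90.8% and 91.4% in tube feet, with the other side at 0% to 1.12%. None of the windows of these 2 borders was called in the quasi-binomial model.

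At Scaffold569:214001-216000 the methylated side fell in tube feet. The outer methylated window, 214001-214500, had 68 of 81 and 65 of 66 reads methylated at 24 hpf, 76 of 91 and 48 of 55 at 48 hpf, 61 of 67 and 63 of 72 at 72 hpf, and 14 of 60 and 11 of 80 in tube feet. It fell by 67.1 points from 48 hpf (quasi-binomial model, adjusted p = 0.000684), with both adult libraries far below all 6 embryo libraries. The inner window, 214501-215000, fell by 45.9 points (adjusted p = 0.00303) and stood at 31.8% and 53.2% in the adult libraries, on 22 and 47 reads. The unmethylated side stayed at 0% to 0.558%. Scaffold420:222001-224000 behaved alike on both windows: the inner window, 223001-223500, went from 77.2% and 86.5% at 48 hpf to 31.0% and 21.2% and fell by 53.6 points (adjusted p = 0.000445). The outer window, 223501-224000, went from 91.2% and 93.4% to 55.4% and 64.2% and fell by 32.5 points (adjusted p = 0.00169).

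Scaffold3:1909501-1911500 had a call in the inner methylated window alone. The inner window, 1910001-1910500, was at 94.2% and 87.0% at 24 hpf, 87.4% and 90.7% at 48 hpf, 98.1% and 96.7% at 72 hpf, but 45.1% and 53.3% in tube feet. It fell by 40.2 points (adjusted p = 0.00143) on 7 CpG sites, while the outer window stood at 90.9% and 83.8% in the adult libraries. The step lay 169 bp past the middle in all embryonic stages and 39.5 bp past it in tube feet. At Scaffold1135:28001-30000 the step differed among the embryonic stages. It lay at -40, 103.5 and 51.5 bp at 24, 48 and 72 hpf, and at -411.5 bp in tube feet. The inner window of this border, 29001-29500, went from 89.3% and 84.4% at 48 hpf to 61.1% and 61.5%. It fell by 25.4 points (quasi-binomial model, adjusted p = 0.00811). That call was lost with limma (adjusted p = 0.0539) and without adult replicate 1 (adjusted p = 0.0823) or adult replicate 2 (adjusted p = 0.0743). Over all alternatives of the model and the tool its adjusted p ranged from 0.00519 to 0.0823.

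Methylation also appeared on an unmethylated side. At Scaffold504:256501-258500 the inner unmethylated window, 257501-258000, had 0 of 280 and 0 of 113 reads methylated at 24 hpf, 2 of 432 and 0 of 276 at 48 hpf, 2 of 398 and 2 of 151 at 72 hpf, and 36 of 137 and 27 of 115 in tube feet. It rose by 24.7 points (adjusted p = 0.000342), and the step lay at -57 bp, before the middle, in all embryonic stages and 122 bp past it in tube feet. The inner methylated window next to it was at 81.3% and 83.8% at 48 hpf and at 82.8% and 82.0% in tube feet. At Scaffold2668:10001-12000 the inner unmethylated window, 10501-11000, stood at 2.74% and 4.07% at 48 hpf, 2.02% and 9.17% at 72 hpf, but 16% and 20% in tube feet, a difference of 14.2 points (adjusted p = 0.0401) that misses the 20-point limit. Its outer methylated window, 11501-12000, fell by 22.8 points (quasi-binomial model, adjusted p = 0.00648). Its step lay at -64.5, 57 and 57 bp at 24, 48 and 72 hpf, and at 134.5 bp in tube feet. At Scaffold142:80001-82000 the inner unmethylated window, 81001-81500, stood at 2.33% and 1.72% at 48 hpf and 13.0% and 12.5% in tube feet. The difference of 10.7 points (quasi-binomial model, adjusted p = 0.0364) was below the limit for a call. The step of this border lay at 85.5 bp in all 4 groups. Both adjusted p-values depended on the model. With limma they were 0.0723 at Scaffold2668 and 0.0492 at Scaffold142, and with the replicate block 0.0264 and 0.0506.

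**Figure D5:**
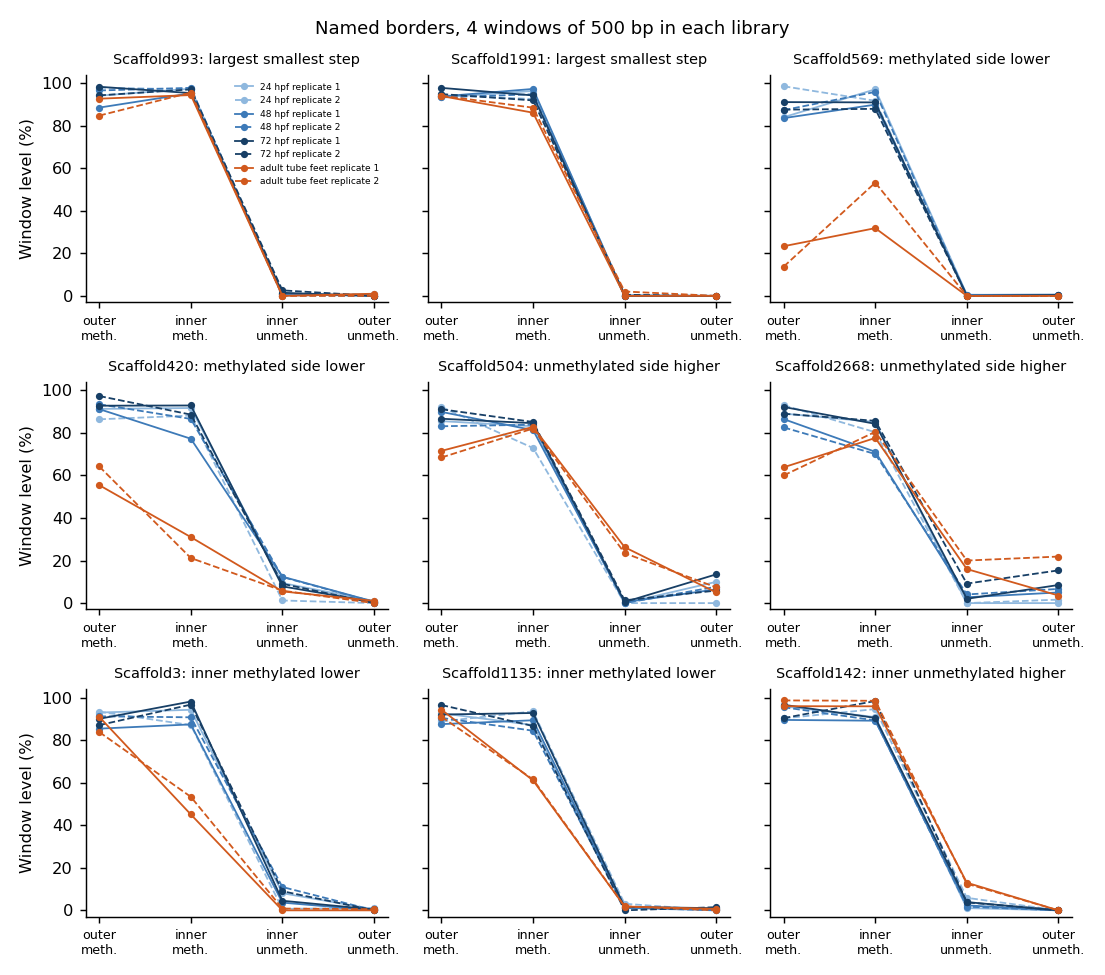
Level (%) of the 4 windows of each named border, from the outer methylated to the outer unmethylated window, with 1 line per library; each panel title gives the scaffold and the pattern for which the rule took the border. On the methylated side of the first 2 panels the adult lines stay at 84.7% or more; the adult lines lie below them on the methylated side of Scaffold569 and Scaffold420 and in the inner methylated window of Scaffold3 and Scaffold1135, and lie above them in the inner unmethylated window of Scaffold504, Scaffold2668 and Scaffold142.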

How the data were processed

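For each library the authors deposited a table of its CpG sites. MethylDackel made it from merged, sorted and deduplicated reads, per the file headers, joining both strands of a CpG, on the Spur3.1 scaffolds with the lambda phage sequence added. Trimmomatic and Picard are named per the submitters' processing notes, and the aligner is not given in the sources used here. A line of a deposited table holds counts of methylated and unmethylated reads, not normalized, and the level as a whole percent. The counts were used throughout, and the deposited percent only to check them. Coordinates are 1-based.

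Counts were summed in windows of 500 bp, and lambda was left out. Groups and replicate numbers came from the sample titles. The members, measures and tests were chosen with earlier results of these data known. No pair of libraries had identical window counts. The window model had 1 mean per group over all 8 libraries, with the Pearson dispersion moderated by limma's squeezeVar (limma 3.58.1, R 4.3.3) over log mean coverage and a lower bound of 1, a quasi-likelihood F test, and Benjamini-Hochberg adjustment over 367598 windows, of which 171660 were fitted. A p-value of 1 was set where the mean level was below 2.5% or above 97.5%. The window test was tested on simulated data first. Values per library were compared between 2 adult and 4 libraries of 24 and 48 hpf by two-sided exact permutation tests in Python 3.11.15 with numpy 2.4.6. A step position needed at least 5 CpG sites with reads on each side and a step of at least 50 points.

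Named borders are the 2 with the largest smallest step, and the 2 each with the largest fall of the methylated side, rise of the unmethylated side, fall of the inner methylated window and rise of the inner unmethylated window from 48 hpf to adult tube feet. The last 2 classes needed an outer window within its limit in both adult libraries, and libraries of the groups had not to overlap in the change. The rule also left out borders with a window over 5 times the median coverage. That median was taken over tested windows, a choice made after the data were seen, since the median over all windows with reads left 3 borders. Alternatives were the read minimum, the limits, the window grid, thinning to 20 calls, the smallest difference, limma on log2 ratios with a pseudocount of 1, the replicate block and each library left out in turn.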

Additional observations from a re-analysis of the deposited data

Results flagged for a closer look

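Among 9 measures of the borders tested for a library far from the others, 2 gave one, where chance alone gives about 0.05 per measure. Reads per CpG site on the methylated side were 1.87 times those on the unmethylated side in 24 hpf replicate 2, far above the other embryo libraries, which ranged from 0.874 to 1.22. The same library had the highest level on the unmethylated side (5.30%) and the fewest borders with enough reads in every window (261). The step was 86.3 points in 24 hpf replicate 1, whereas the other 3 libraries of 24 and 48 hpf lay between 84.3 and 84.4 points. The part of coverage in these values was not tested.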

How the results depend on the processing

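The number of borders depends on the limits. It was 661 with at least 40 reads per window, 307 with limits of 90% and 10%, 1987 with limits of 70% and 30%, and 724 to 840 with a library left out. The share that met the limits again at 24 hpf, 48 hpf and in adult tube feet was 71.8%, 68.9% and 36.5% with 10 reads, 78.7%, 78.0% and 47.8% with 40 reads, 46.8%, 34.9% and 16.3% with limits of 90% and 10%, and 80.5%, 81.4% and 53.3% with limits of 70% and 30%. Thinned to 20 calls per window it was 74.5%, 68.8% and 44.8%, and on shifted windows 69.8% at 48 hpf and 43.0% in adult tube feet. Leaving out 1 library gave 74.3% to 76.5%, 69.9% to 76.5% and 41.3% to 47.2%. The adult share was the lowest of the 3 under each of these settings.

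Between adult tube feet and 48 hpf, 40 reads gave 83 called border windows, 70 of them lower on the methylated side (8.02%, with 8.68% of all windows) and 12 higher on the unmethylated side (1.39%, with 0.929%). A smallest difference of 10 points gave 35 higher (2.71%, with 1.36%), and one of 30 points 81 lower (6.33%, with 6.50%). With a library left out, calls ranged from 78 to 216, lower calls from 67 to 174 and higher calls from 9 to 35, with the fewest calls and lower calls without adult replicate 2, the fewest higher calls without adult replicate 1, and the most of each without 24 hpf replicate 2. Between 48 and 24 hpf the range was 0 to 2, and between adult tube feet and 72 hpf 78 to 226, with 88 at 40 reads. The number of windows tested changed with the setting too. With a library left out, 961 to 1596 methylated-side windows were tested. There were 1280 with none left out and 873 at 40 reads. For these total counts in the 3 comparisons, the share over all windows under each setting is not given. The ranges of total calls therefore say nothing particular of borders. The replicate numbers are not shown to pair the libraries, since deviations of same-numbered libraries correlated by -0.0036 between adult tube feet and 48 hpf and by 0.258 between 48 and 24 hpf. With the replicate block, 117 methylated-side windows (9.14%, with 9.07% of all windows) were called lower. The exact permutation tests then gave p = 0.111, the smallest of 9 arrangements, for 5 measures and p = 0.556 for the unmethylated side. The 6 differences per library and that between border and other methylated windows kept their direction with each library left out, and on shifted windows, where run, the inner minus outer contrast was -0.366 points and the position -16.0 bp. Among named windows, the difference at Scaffold504 258001-258500 turned to 0.321 points without adult replicate 1 (-2.09 without adult replicate 2), and that at Scaffold2668 10001-10500 to -2.14 points without adult replicate 2 (16.2 without adult replicate 1); neither was called. The cause was not tested in any of these cases.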

Other observations

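On the unmethylated side, 1 border window was called lower, with 50.3% at 48 hpf and 0.315% in adults, although pooled 72 hpf reads were at 20% or less there. On the methylated side, 1 window was called higher, from 73.6% to 93.7%. The unmethylated side of borders lay 2.91 ± 0.0374 points (SD, n = 2) above windows unmethylated throughout in adult tube feet and 2.46 ± 0.332 points (SD, n = 4) above them at 24 and 48 hpf (exact permutation p = 0.133).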
